A study of Homo sapiens with 9 samples.

Results

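Among the genes that HepG2 cells express, 9 were selected on their measured RNA level, which was higher than in untreated cells after 20 µM eliglustat and lower than in untreated cells after 30 µM: SSTR3, TRIM50, WFIKKN1, PAQR8, FAM20A, ACSM2B, PLPPR1, CUBN and LDHD. They are 9 of 62703 gene identifiers listed and of 17623 with enough counts to be tested, and all 9 passed that filter. HepG2 is an established line from a human liver tumour. Eliglustat, an oral drug for Gaucher disease, inhibits glucosylceramide synthase, the product of UGCG, which makes the first glycosphingolipid from ceramide. The groups sequenced were untreated control cells, for which the labels give no time, cells given 20 µM for 72 h and cells given 30 µM for 72 h, with 3 libraries each. All groups are the same line, and nothing in the labels ties a group's libraries to separate cultures. Any spread or p-value given here therefore covers these libraries only and may be technical.

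The 9 genes belong to no single pathway. SSTR3 is a somatostatin receptor that couples to inhibitory G proteins and sits on primary cilia, and PAQR8 is a membrane progesterone receptor. CUBN is cubilin, the endocytic receptor for intrinsic factor with cobalamin, which works with the protein encoded by AMN. WFIKKN1 is a secreted protein with protease inhibitor modules that binds the growth factors GDF11 and myostatin, and FAM20A is a pseudokinase of the secretory pathway that works beside the kinase FAM20C. PLPPR1 is a membrane protein related to lipid phosphatases and best known in neurons, and TRIM50 is an E3 ubiquitin ligase known from gastric parietal cells. ACSM2B, a mitochondrial medium-chain acyl-CoA synthetase of liver and kidney, and LDHD, the mitochondrial D-lactate dehydrogenase, are metabolic enzymes.

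The members were chosen for moving alike over the doses, which does not show a shared control. The letters before their start sites are shown for those with an entry in the promoter table (RefSeq, GRCh38.p14). Of the 9 genes 5 had an entry, with 7 windows in all. Each window runs from 250 bases before to 50 bases after a start site, 5′ to 3′ on the strand of the gene. One window per gene is printed, the one nearest the 5′ end of the gene in GENCODE: SSTR3 at chr22:37212428-37212727 (minus strand), TRIM50 at chr7:73325526-73325825 (minus), WFIKKN1 at chr16:630735-631034 (plus), PLPPR1 at chr9:101028477-101028776 (plus) and CUBN at chr10:17129762-17130061 (minus). This start site lies inside the span that GENCODE gives the gene for all of these but SSTR3. Capitals mark a match to one of 8 motifs, on either strand.
SSTR3: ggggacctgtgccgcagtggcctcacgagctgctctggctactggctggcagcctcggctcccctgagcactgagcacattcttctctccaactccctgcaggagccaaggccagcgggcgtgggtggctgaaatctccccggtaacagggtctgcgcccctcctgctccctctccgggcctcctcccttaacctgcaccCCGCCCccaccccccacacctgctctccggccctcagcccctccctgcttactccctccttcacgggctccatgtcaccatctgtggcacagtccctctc
TRIM50: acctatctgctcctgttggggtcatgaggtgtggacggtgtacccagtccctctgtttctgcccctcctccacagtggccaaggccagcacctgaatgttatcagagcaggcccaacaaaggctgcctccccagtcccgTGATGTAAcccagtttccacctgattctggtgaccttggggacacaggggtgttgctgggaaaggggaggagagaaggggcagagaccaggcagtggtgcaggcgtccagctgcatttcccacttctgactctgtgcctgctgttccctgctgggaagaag
WFIKKN1: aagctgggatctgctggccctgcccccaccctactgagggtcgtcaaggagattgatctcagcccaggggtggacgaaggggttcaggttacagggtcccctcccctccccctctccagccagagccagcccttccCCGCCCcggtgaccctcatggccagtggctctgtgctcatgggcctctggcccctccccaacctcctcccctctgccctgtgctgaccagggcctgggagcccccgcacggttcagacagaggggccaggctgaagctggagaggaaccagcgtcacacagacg
PLPPR1: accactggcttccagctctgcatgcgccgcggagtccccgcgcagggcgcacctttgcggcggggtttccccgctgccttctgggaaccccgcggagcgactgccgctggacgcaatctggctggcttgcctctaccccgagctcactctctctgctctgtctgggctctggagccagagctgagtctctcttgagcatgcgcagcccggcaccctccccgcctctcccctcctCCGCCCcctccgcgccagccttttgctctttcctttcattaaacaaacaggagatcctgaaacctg
CUBN: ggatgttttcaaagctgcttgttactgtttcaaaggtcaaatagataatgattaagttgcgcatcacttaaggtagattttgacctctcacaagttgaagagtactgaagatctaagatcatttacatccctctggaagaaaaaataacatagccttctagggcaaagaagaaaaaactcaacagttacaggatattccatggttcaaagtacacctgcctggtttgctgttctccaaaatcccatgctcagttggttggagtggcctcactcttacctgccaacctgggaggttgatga

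The motif GGGCGG (GC box) was found in 4 of the 7 windows, against 45% of 35116 promoters of the same length. SSTR3 and PLPPR1 gave 2 windows each, so the 7 windows are not separate genes. Both SSTR3 windows held the motif, and in the one not printed it began 13 bases after the start site. GGGCGG began 50 bases before the start site in the printed SSTR3 window, 114 before it for WFIKKN1 and 16 before it for PLPPR1. Each time GGGCGG lay on the opposite strand, so the printed strand reads CCGCCC. TGATGNAA, an amino acid response element, was found in the TRIM50 window, 111 bases before the start site, and in 3.62% of all promoters. The other 6 motifs had no match in the 7 windows. They were CACGTG, the E-box that many helix-loop-helix factors bind, which 7.26% of all promoters hold, and TGANTCA, the AP-1 element bound by Fos and Jun proteins, which 7.71% hold. Next came TGACGTCA, the cAMP response element, held by 1.85%, and TGTTTAC, the core bound by forkhead factors, held by 3.42%. The last were CAAAGTCCA, an element of the liver factor HNF4, held by 0.384%, and TATAAA, the TATA box, held by 11.5%. No 2 of these motifs overlapped in the printed windows. None of the 8 motifs was found in all 5 printed windows. Their base composition was spread as well, with 40.7% GC for CUBN and 67.0% for SSTR3 and WFIKKN1. The median GC content was 58.7% in the 7 windows and 58.7% in all promoters. The ratio of observed to expected CpG had a median of 0.181 in the 7 windows (0.0806 to 0.70) and 0.579 in all promoters. A match is a description of letters and not a binding site.

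Libraries held 21103757 to 26782810 counts in genes, and the 9 genes had 52 to 1706 counts in a library. All 8 hepatocyte and HepG2 markers were present, with a summed level of 3.10e+04 to 3.19e+04 CPM in controls, 3.43e+04 to 3.48e+04 at 20 µM and 3.90e+04 to 3.94e+04 at 30 µM (CPM, counts scaled to a common library total). Most of this sum was APOB, which averaged 19950 CPM in controls, 21520 CPM at 20 µM and 27770 CPM at 30 µM, while 3 others averaged less at the doses than in controls. ALB averaged 669.3, 536.7 and 484.9 CPM, AFP 1343, 1033 and 937.5 CPM, and FGB 613.9, 595.9 and 480 CPM in the same order. Markers of other cell types were also looked for. Of 5 leukocyte markers PTPRC had 0 counts in every library, while LYZ, lysozyme, averaged 468.8 CPM in controls, 451.6 CPM at 20 µM and 654.9 CPM at 30 µM. LYZ made up most of the list's summed level of 449.7 to 495.8, 437.8 to 473.9 and 636.3 to 666.8 CPM in these groups. Of 5 fibroblast and stellate cell markers DCN had 0 counts, while ACTA2, smooth muscle actin, averaged 36.03, 34.3 and 21.5 CPM, and the list summed to 33.9 to 40.8, 34.5 to 36.5 and 23.3 to 25.85 CPM in the same order. The summed level of the 4 endothelial markers was at most 6.34 CPM. The part of these markers in the results was not tested. UGCG, the gene of the drug's target, averaged 23.7 ± 1.51 CPM in controls, 43.2 ± 2.90 CPM at the lower dose and 88.6 ± 3.93 CPM at the upper one (SD, n = 3 each). Records that aligned to several places made up 12.4% to 12.8% in controls, 13.3% to 15.5% at 20 µM and 14.8% to 19.4% at 30 µM, and their part in the members' levels was not tested. Control library 1, 20 µM library 3 and 30 µM library 3 deviated from their group means together across all genes (r = 0.331, 0.343 and 0.352 for the 3 pairs). Without these 3 libraries the members' log2 differences ran from 0.39 to 1.09 at 20 µM and from -1.21 to -0.59 at 30 µM against control. The signs were unchanged for all 9, which the choice of members largely fixes.

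**Figure D1:**
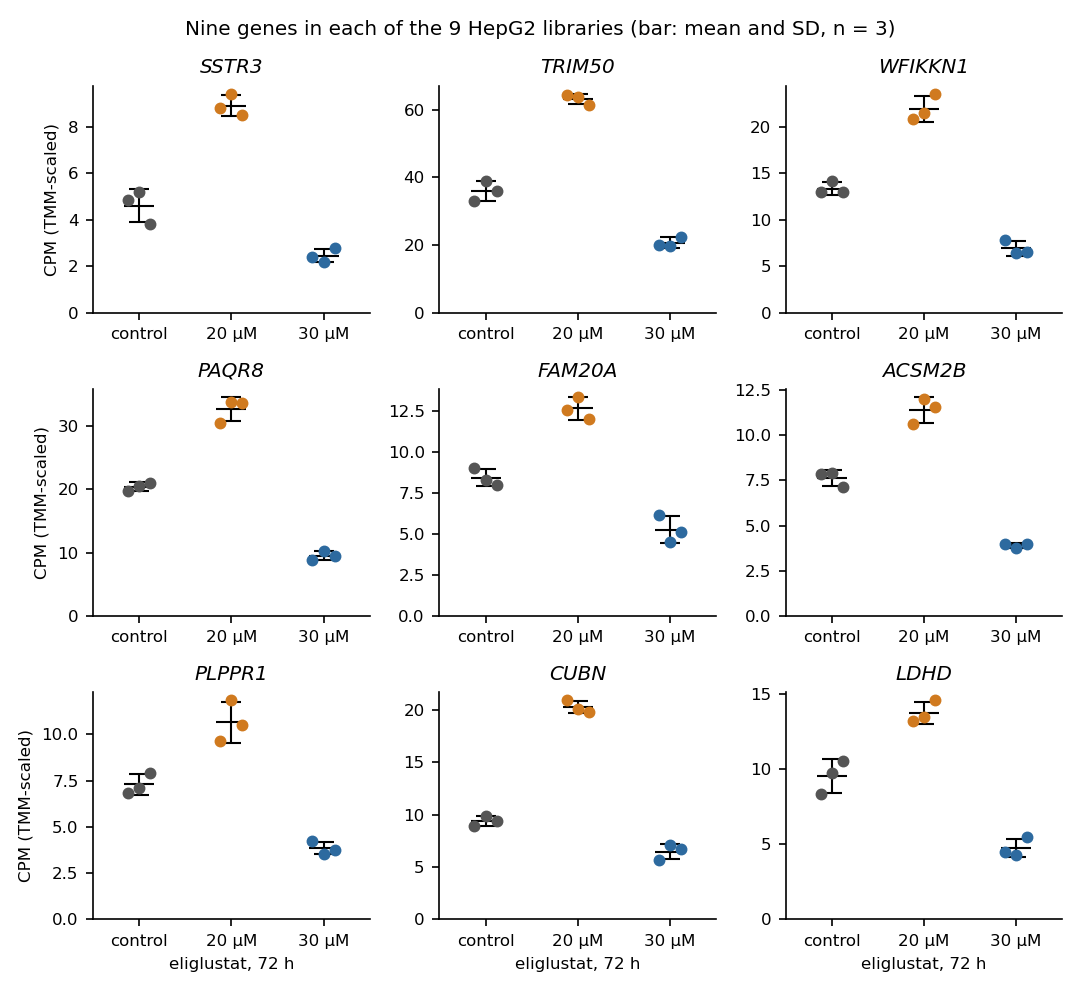
Level of each of the 9 genes (CPM, y axis starting at 0) in the 3 control libraries, the 3 libraries at 20 µM and the 3 at 30 µM eliglustat; points are libraries, and bars are the mean and SD (n = 3). In every panel the 20 µM points lie highest and the 30 µM points lowest, with no overlap between groups, from SSTR3 at 2.19 to 9.40 CPM to TRIM50 at 19.8 to 64.4 CPM.

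Values for the 9 genes describe how they were chosen and carry no test. In the plot of their levels by library, the groups did not overlap for any of the 9. Over all genes tested, 22.4% had every 20 µM library above every control, 33.8% had every 30 µM library below every control, 3.59% had both, and 31.4% had every 30 µM library below every 20 µM library. The lowest 20 µM library stood above the highest control by 1.22-fold (PLPPR1) to 2.01-fold (CUBN), and the lowest control stood above the highest 30 µM library by 1.26-fold (CUBN) to 1.92-fold (PAQR8). These are bulk libraries, so a lower level cannot be told apart from fewer cells that carry the transcript.

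Of the receptors, SSTR3 (ENSG00000278195.2, chromosome 22 from 37204238 to 37212322, minus strand; all gene positions are from GENCODE 29 on hg38) was the least abundant of the 9 by counts. It had 4.84, 5.18 and 3.81 CPM in controls, 8.80, 9.40 and 8.53 CPM at 20 µM, and 2.41, 2.19 and 2.77 CPM at 30 µM. Both eliglustat groups lay clear of the controls, on opposite sides. The log2 difference was 0.95 ± 0.137 (SE) at 20 µM and -0.90 ± 0.157 at 30 µM against control, so the distances up and down were nearly the same. Between the doses, 30 µM was 3.62-fold below 20 µM. The controls spread most here, with a coefficient of variation of 15.5%, where counting error alone gives 9.18%.

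PAQR8 (ENSG00000170915.9, chromosome 6 from 52361421 to 52407777, plus strand) had the largest fall of the 9 at the upper dose. Its level was 19.7, 20.5 and 21.1 CPM in controls, 30.5, 33.8 and 33.7 CPM at 20 µM, and 8.84, 10.2 and 9.46 CPM at 30 µM. Every 20 µM library was above the controls and every 30 µM library below them. For PAQR8 the log2 difference was 0.68 ± 0.0701 at 20 µM and -1.10 ± 0.0796 at 30 µM against control, and at 30 µM the level was 2.14-fold lower.

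CUBN (ENSG00000107611.16, chromosome 10 from 16823966 to 17129817, minus strand) had the largest rise and the smallest fall of the 9. Its level was 8.90, 9.87 and 9.34 CPM in controls, 20.9, 20.1 and 19.8 CPM at 20 µM, and 5.65, 7.05 and 6.69 CPM at 30 µM. The 20 µM libraries stood well apart, while the 30 µM libraries came closest to the controls of any member. For CUBN the log2 difference was 1.12 ± 0.0918 at 20 µM, a 2.17-fold higher level, and -0.53 ± 0.103 at 30 µM, a 1.44-fold lower one.

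Of the secretory-pathway proteins, WFIKKN1 (ENSG00000127578.7, chromosome 16 from 629239 to 634116, plus strand) had 13.0, 14.15 and 13.0 CPM in controls, 20.8, 21.55 and 23.55 CPM at 20 µM, and 7.87, 6.39 and 6.565 CPM at 30 µM. The 3 groups were separated by more than the spread within any of them. For WFIKKN1 the log2 difference was 0.72 ± 0.0865 at 20 µM and -0.95 ± 0.0975 at 30 µM against control. Its exons share 34 bases with those of RAB40C on the same strand.

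FAM20A (ENSG00000108950.12, chromosome 17 from 68535113 to 68601389, minus strand) had the smallest distance between the doses. Its level was 9.003, 8.29 and 7.98 CPM in controls, 12.6, 13.4 and 12 CPM at 20 µM, and 6.16, 4.50 and 5.12 CPM at 30 µM. The order of the groups was kept, with the 30 µM libraries spread by 15.96% where counting error gives 9.05%. For FAM20A the log2 difference was 0.58 ± 0.109 at 20 µM and -0.69 ± 0.12 at 30 µM against control, and 30 µM was 2.41-fold below 20 µM. Its span overlaps PRKAR1A on the opposite strand, with 0 shared exon bases. PRKAR1A, the type I regulatory subunit of protein kinase A, had 6308 to 12087 counts a library against 109 to 333 for FAM20A, and it rose at both doses.

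Of the membrane protein and the ligase, PLPPR1 (ENSG00000148123.15, chromosome 9 from 101028709 to 101325135, plus strand) had 6.85, 7.12 and 7.91 CPM in controls, 9.67, 11.9 and 10.5 CPM at 20 µM, and 4.21, 3.55 and 3.76 CPM at 30 µM. The lowest 20 µM library came closer to the controls than in any other member. The log2 difference was 0.55 ± 0.115 at 20 µM and -0.93 ± 0.129 at 30 µM against control.

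TRIM50 (ENSG00000146755.11, chromosome 7 from 73312539 to 73328082, minus strand) was the most abundant of the 9. Its level was 33.1, 38.8 and 36.1 CPM in controls, 64.4, 63.8 and 61.5 CPM at 20 µM, and 19.9, 19.8 and 22.5 CPM at 30 µM. The coefficient of variation was 7.9% in controls, 2.4% at 20 µM and 7.4% at 30 µM. Counting error alone gives 3.3%, 2.5% and 4.5% in the same order. For TRIM50 the log2 difference was 0.82 ± 0.0586 at 20 µM and -0.79 ± 0.0646 at 30 µM against control, the most even pair of distances of the 9. Of the 75-base windows of its transcript, 12.3% also occur in TRIM73 or TRIM74. Records that aligned to several places were totalled apart from the genes and left out. The part of this in its level was not tested.

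Of the enzymes, ACSM2B (ENSG00000066813.14, chromosome 16 from 20536226 to 20576427, minus strand) had 7.86, 7.93 and 7.15 CPM in controls, 10.6, 12.03 and 11.6 CPM at 20 µM, and 3.98, 3.75 and 3.96 CPM at 30 µM. The 30 µM libraries spread by 3.25%, the least of the 9 at that dose. Counting error alone gives 10.5%, so this closeness does not show a steadier level. The log2 difference was 0.58 ± 0.107 at 20 µM and -0.97 ± 0.121 at 30 µM against control. Of its 75-base windows, 29.3% also occur in ACSM2A, its near copy, and the part of reads from the shared stretches in its level was not tested.

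LDHD (ENSG00000166816.15, chromosome 16 from 75111860 to 75116771, minus strand) had 8.32, 9.74 and 10.53 CPM in controls, 13.2, 13.45 and 14.6 CPM at 20 µM, and 4.49, 4.29 and 5.45 CPM at 30 µM. The groups did not overlap, although its controls spread by 11.7%. The log2 difference was 0.53 ± 0.107 at 20 µM, the smallest rise of the 9, and -1.003 ± 0.12 at 30 µM, a 2.00-fold lower level. Without the 3 libraries that deviate together its difference at 20 µM was 0.39.

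Per kilobase, counting all exons of a gene, TRIM50 was the highest of the 9 in every group, with a level of 14.5 CPM per kb in controls, 25.4 at 20 µM and 8.33 at 30 µM. LDHD and PAQR8 came next in controls, at 4.04 CPM per kb each, and did not differ beyond their spread. WFIKKN1 followed at 2.74 and PLPPR1 at 1.99, then FAM20A at 1.36, SSTR3 at 1.02, ACSM2B at 0.937 and CUBN at 0.706 CPM per kb in controls. The order below TRIM50 depended on the length used. With the longest transcript of each gene as its length, a choice made after seeing the data, WFIKKN1 came next at 6.59 CPM per kb in controls, before LDHD at 4.61 and PAQR8 at 4.31, which again did not differ beyond their spread. PLPPR1, FAM20A and ACSM2B then lay close together at 2.92, 2.85 and 2.61, followed by SSTR3 at 1.12 and CUBN at 0.785 CPM per kb. With this length CUBN was the lowest at both doses as well, at 1.70 CPM per kb at 20 µM and 0.542 at 30 µM, a value within the spread of SSTR3 at 0.598. Counting all exons, ACSM2B was lowest at both doses, at 1.40 against 1.53 CPM per kb for CUBN at 20 µM and 0.478 against 0.487 at 30 µM, the last pair closer than their spread.

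The 9 genes differed in how far they moved each way. The median log2 difference was 0.68 at 20 µM against control for the 9 and 0.01 for all genes tested. At 30 µM it was -0.93 for the 9 and -0.04 for all genes, and for 30 µM against 20 µM it was -1.61 for the 9 and -0.03 for all. The rise exceeded the fall by 0.59 on the log2 scale for CUBN, while the fall exceeded the rise by 0.48 for LDHD and by 0.42 for PAQR8. Their summed level was 111.5, 121.6 and 116.9 CPM in controls, 191.5, 199.3 and 195.8 CPM at 20 µM, and 63.5, 61.75 and 66.3 CPM at 30 µM. Over the 9 libraries, log2 levels of 2 members correlated with r of 0.908 to 0.991 (36 pairs, median 0.974), which the choice of members fixes. After the group means were taken away, r ran from -0.851 to 0.719 with a median of 0.055. These correlations are over 9 libraries of 3 groups, share each library's depth and carry no test.

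All 9 were called (adjusted p under 0.05) in both comparisons with control and between the doses, but these contrasts chose them and the count supports nothing. Among all genes tested, 34.2% were called at 20 µM against control, 17.2% higher and 16.9% lower. At 30 µM against control 60.8% were called, 29.5% higher and 31.3% lower, and for 30 µM against 20 µM 57% were called, 28% higher and 28.9% lower. The pattern of the 9 genes, called higher at 20 µM and called lower at 30 µM, was met by 394 genes, or 2.24%, and by sign alone 17.7% of genes were higher at 20 µM and lower at 30 µM. The 394 genes were 13% of the genes called higher at 20 µM and 7.14% of those called lower at 30 µM, and 355 of them were protein-coding. The opposite pattern was met by 363 genes, while 2055 were called higher at both doses and 2053 lower at both. The 2 comparisons share the control libraries, so their signs are not independent.

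**Figure D2:**
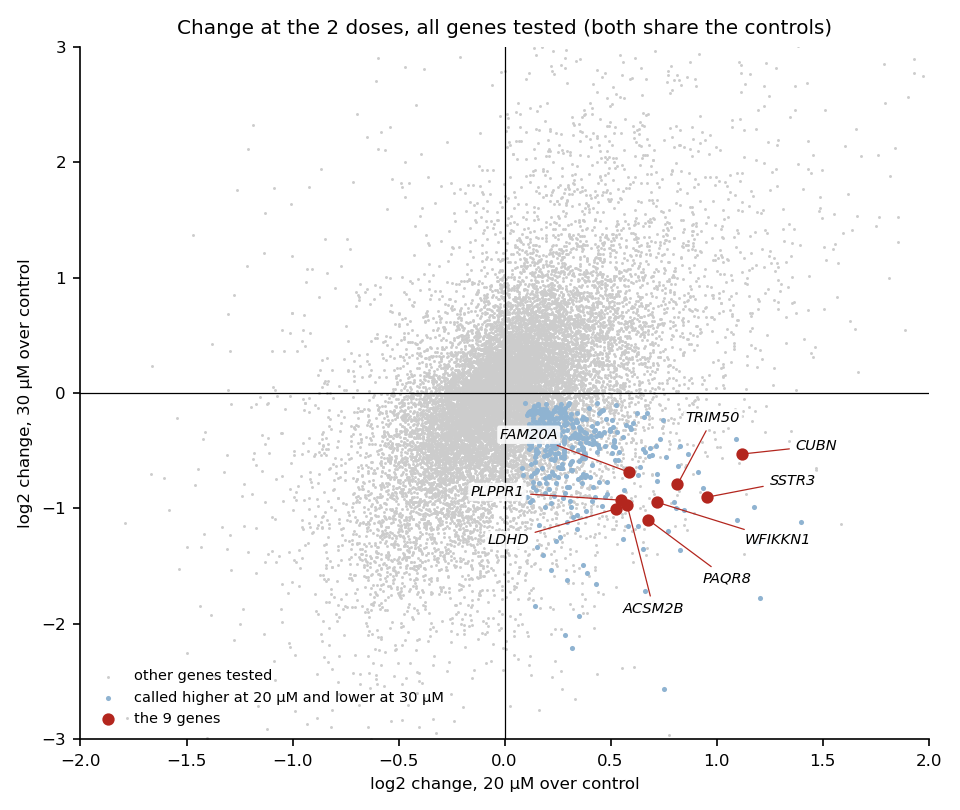
Log2 change at 20 µM (x axis) and at 30 µM (y axis) over control for the genes tested, which share the control libraries; grey points are other genes, blue points genes called higher at 20 µM and lower at 30 µM, red points the 9 genes, and 196 genes lie outside the axes. The 9 genes lie in the lower right quadrant, from 0.53 (LDHD) to 1.12 (CUBN) across and from -1.10 (PAQR8) to -0.53 (CUBN) down.

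Among those 394 genes the 9 had large changes in both directions. When genes were ranked by the smaller of their 2 log2 sizes, for which the median of the 394 was 0.24, the members held the ranks 6, 12, 17, 20, 27, 29, 34, 37 and 39. LDHD, at 0.53 and -1.003, was the lowest-ranked member. Of the 39 genes down to this rank only 9 were members, so the ranking does not set them apart. CYP4V2, a fatty acid hydroxylase of the cytochrome P450 family, came next after LDHD with 0.52 and -0.58. Of 13 protein-coding genes with a mean of at least 5 CPM and both sizes at least 0.5, 9 were the members. Both limits lie just below the lowest members, SSTR3 at a mean of 5.32 CPM and LDHD at 0.53. This share therefore largely restates the choice of members and supports nothing. The other 4 of the 13, named after their values were seen, were CYP4V2, ITIH1 (0.86 and -0.53), SHC3 (0.66 and -0.51) and SLC2A4 (0.54 and -0.51). ITIH1 encodes a plasma protein of the inter-alpha-trypsin inhibitor family made by liver, and SLC2A4 encodes the insulin-responsive glucose transporter.

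The 6 protein-coding genes outside the 9 whose log2 level was most like the mean standardised level of the 9 over the 9 libraries were PHGDH, TECPR2 and OBSL1 (r = 0.995 each) and ZSCAN2, ESPN and GDPD5 (r = 0.993 each). At 20 µM each of the 6 had a smaller log2 difference than any of the 9. PHGDH, which starts serine synthesis, had a log2 difference of 0.26 at 20 µM and -0.36 at 30 µM against control, and GDPD5, a glycerophosphodiester phosphodiesterase, had 0.35 and -0.59.

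To see whether the pattern extended to relatives and partners, 120 genes from the families and pathways of the 9 were read from the same fits. Of these 88 had enough counts, and the other 32 had at most 14 counts in any library, among them the somatostatin gene SST and LDHB with 0. At 20 µM against control 32 of the 88 were called higher (36.4%, against 17.2% of all genes) and 12 lower (13.6%, against 16.9%). At 30 µM 39 were called higher (44.3%, against 29.5%) and 30 lower (34.1%, against 31.3%), and for 30 µM against 20 µM 31 were called higher (35.2%, against 28%) and 35 lower (39.8%, against 28.9%). The median log2 difference of the 88 was 0.08 at 20 µM and -0.0074 at 30 µM. The pattern of the 9 was met by 7 of the 88 (7.95%, against 2.24% of all genes): HDAC6, FAM20C, ACSS1, ENPP2, DAB2, MMAB and MPC2. HDAC6, FAM20C and MPC2 lost a call against control in 1, 4 and 2 of 18 alternatives. The lists were chosen with earlier results of these data known, so these shares are a description and carry no test. Of the 19 paralogues tested, 4 were called higher and 2 lower at 20 µM, 10 higher and 3 lower at 30 µM, and FAM20C alone met the pattern.

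**Figure D3:**
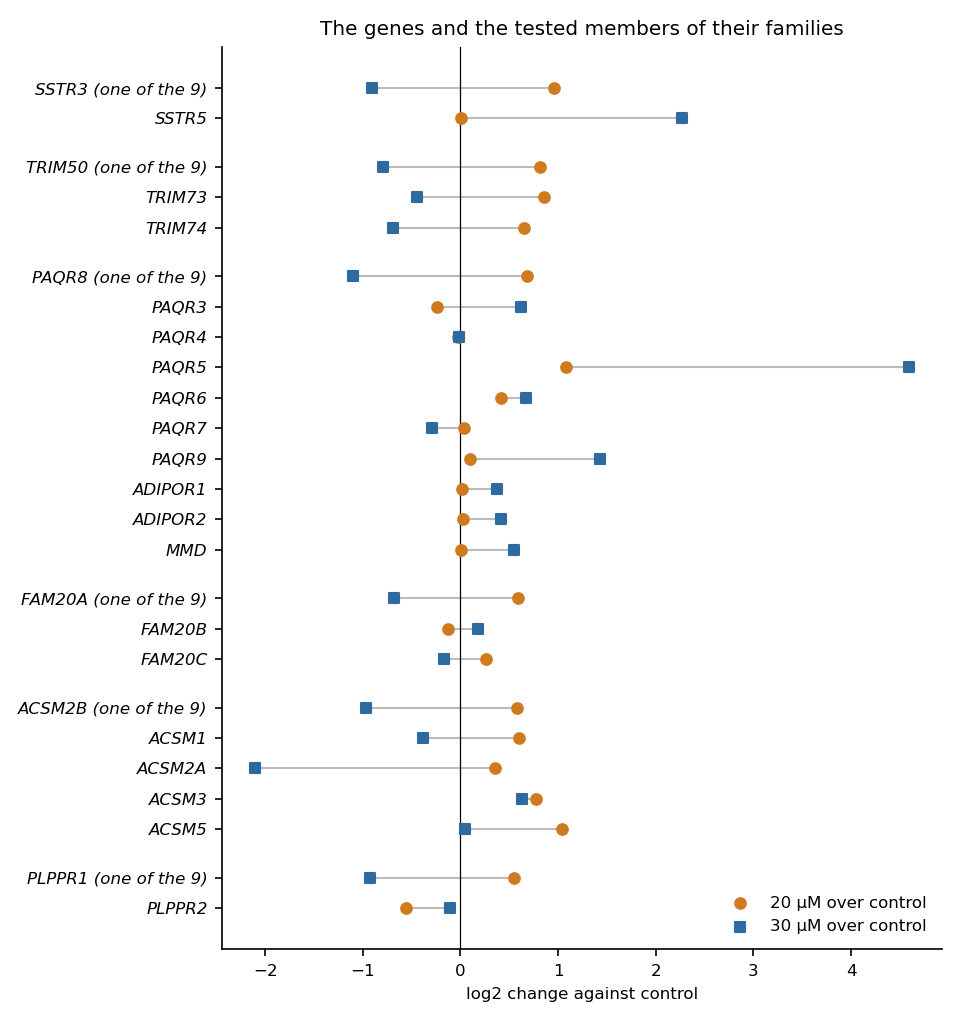
Log2 change over control at 20 µM (orange circles) and 30 µM (blue squares) for 6 of the 9 genes and the tested members of their families. In the 6 genes the circle lies right of 0 and the square left of it, while SSTR5 and PAQR5 have squares at 2.27 and 4.596.

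Around SSTR3, the receptor SSTR5 rose at 30 µM, with 1.67, 1.69 and 1.90 CPM there against 0.287, 0.361 and 0.431 CPM in controls (log2 difference 2.27 ± 0.347, adjusted p = 8.27e-07). No difference was detected for it at 20 µM, where the log2 difference was 0.01 ± 0.42 (adjusted p = 0.992). In this list of G proteins, receptors and cilium genes, 9 genes were tested. At 20 µM 1 was called higher and 2 lower (all genes, 17.2% and 16.9%). At 30 µM 3 were called higher and 3 lower (all genes, 29.5% and 31.3%). The one called higher at 20 µM was GNAI1, an inhibitory G protein subunit (0.28, adjusted p = 0.0188), and this call was lost in 4 of 18 alternatives (without control library 1, control library 3, 20 µM library 2 or all 3 of the jointly deviating libraries, adjusted p = 0.0653 to 0.113). BBS4, a subunit of the complex that carries receptors to cilia, fell at 30 µM (-1.12 ± 0.124, adjusted p = 1.39e-09), as did IFT88 of the ciliary transport machinery (-0.65 ± 0.0846, adjusted p = 4.13e-08). BBS4 and IFT88 were named for the size of their differences, and not all cilium genes tested were called at 30 µM.

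Around PAQR8, 11 relatives and partners were tested, of which 0 were called higher and 1 lower at 20 µM (all genes, 17.2% and 16.9%). At 30 µM 7 were called higher and 2 lower (all genes, 29.5% and 31.3%). The one called lower at 20 µM was PAQR3 (-0.24, adjusted p = 0.0394). This call was lost in 6 of 18 alternatives (adjusted p = 0.0537 to 0.233), namely DESeq2, upper-quartile factors, only the groups compared, and without control library 2, 20 µM library 1 or 20 µM library 2. PAQR7, one of the 2 called lower at 30 µM (-0.29, adjusted p = 0.0163), lost its call without control library 1 (adjusted p = 0.0557) or 30 µM library 1 (adjusted p = 0.0685). PAQR5, another membrane progesterone receptor, had 5.28, 5.24 and 4.79 CPM at 30 µM against 0.179, 0.271 and 0.180 CPM in controls, and its 30 µM libraries stood far above all others (4.596 ± 0.325, adjusted p = 3.10e-14). The adiponectin receptors ADIPOR1 (0.38 ± 0.0429, adjusted p = 2.94e-09) and ADIPOR2 (0.42 ± 0.036, adjusted p = 4.12e-12) rose at 30 µM, and PGRMC1, a progesterone-binding membrane protein, fell (-0.36 ± 0.038, adjusted p = 4.48e-10).

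Around CUBN, AMN, the membrane anchor of cubilin, rose at 20 µM with it, with 90.4, 96.4 and 95.1 CPM there against 64.9, 65.4 and 64.8 CPM in controls (0.53 ± 0.0442, adjusted p = 1.51e-11). At 30 µM AMN had 66.1, 63.1 and 68.75 CPM, a log2 difference of 0.02 ± 0.0452 (adjusted p = 0.708), and the groups overlapped. LRP2, the endocytic receptor megalin, which internalises cubilin, fell at 30 µM (-1.34 ± 0.207, adjusted p = 1.03e-06). The 4 proximal tubule markers, from the kidney cells where CUBN is best known, all had a count. LRP2 is one of them, UMOD had at most 2 counts, and their summed level was 4.91 to 6.49 CPM in controls, 4.285 to 4.76 CPM at 20 µM and 1.99 to 2.64 CPM at 30 µM. Of 15 genes of cobalamin uptake and use tested, 4 were called higher and 7 lower at 30 µM (all genes, 29.5% and 31.3%). At 20 µM 7 were called higher and 3 lower (all genes, 17.2% and 16.9%). Of the 3, MMACHC, a cobalamin processing protein (-0.24, adjusted p = 0.0162), lost its call without control library 3, without 20 µM library 1 and with all 3 of the jointly deviating libraries left out (adjusted p = 0.0537 to 0.0777). DAB2, an endocytic adaptor, and MMAB, which makes adenosylcobalamin, met the pattern of the 9, MMAB with 0.28 ± 0.044 and -0.40 ± 0.0456. MMACHC, which processes incoming cobalamin, fell at 30 µM (-1.06 ± 0.0843, adjusted p = 5.96e-13).

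Around WFIKKN1, the secreted activin inhibitors FST and FSTL3 were higher at 30 µM. FST, follistatin, had 179.2, 167.6 and 165.3 CPM at 30 µM against 10.1, 12.5 and 12.2 CPM in controls (3.88 ± 0.062, adjusted p = 1.61e-30), and it was also higher at 20 µM (1.15 ± 0.0688, adjusted p = 2.05e-14). FSTL3 rose at both doses as well (0.69 ± 0.118 with adjusted p = 2.25e-05 at 20 µM, and 1.90 ± 0.111 with adjusted p = 2.64e-15 at 30 µM). Of 11 ligands, inhibitors, receptors and transducers tested, 7 were called higher and 1 lower at 20 µM (all genes, 17.2% and 16.9%). At 30 µM 7 were called higher and 2 lower (all genes, 29.5% and 31.3%). The 2 that fell at 30 µM were the ligand genes GDF11 (-0.45 ± 0.106, adjusted p = 4.22e-04) and INHBC (-0.81 ± 0.117, adjusted p = 3.16e-07).

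Around FAM20A, FAM20C, the Golgi kinase it works beside, met the pattern at smaller size, with 0.27 ± 0.0562 at 20 µM (adjusted p = 3.87e-04) and -0.17 ± 0.0575 at 30 µM (adjusted p = 0.0125). Its call at 30 µM was lost with DESeq2 (adjusted p = 0.0654) and without control library 2, 30 µM library 1 or 30 µM library 2 (adjusted p = 0.0792, 0.0949 and 0.0596). Of 7 secretory-pathway kinases tested, 3 were called higher and 2 lower at 20 µM (all genes, 17.2% and 16.9%). At 30 µM 4 were called higher and 2 lower (all genes, 29.5% and 31.3%). Of the 2 lower at 20 µM, FAM20B (-0.13, adjusted p = 0.0166) lost its call without control library 3 (adjusted p = 0.105). FJX1 had the largest change of the 7, 2.04 ± 0.175 at 30 µM (adjusted p = 3.89e-12).

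Around PLPPR1, 8 lipid phosphatase and lysophosphatidate genes were tested, with 3 called higher and 0 lower at 20 µM (all genes, 17.2% and 16.9%). At 30 µM 5 were called higher and 1 lower (all genes, 29.5% and 31.3%). The one that fell at 30 µM was ENPP2, autotaxin, which makes lysophosphatidate and which met the pattern of the 9. It had 43.5, 47.1 and 45.5 CPM in controls, 61.5, 61.35 and 61.2 CPM at 20 µM, and 38.7, 37.45 and 37.2 CPM at 30 µM, with no overlap (0.44 ± 0.0489, adjusted p = 8.69e-09, and -0.26 ± 0.0509, adjusted p = 3.67e-05). PLPPR2, the only other PLPPR gene tested, had 0.752 to 1.25 CPM and a log2 difference of -0.56 ± 0.306 at 20 µM (adjusted p = 0.165).

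Around TRIM50, its near copy TRIM73 rose at 20 µM (0.86 ± 0.22, adjusted p = 0.00219) and had -0.44 ± 0.243 at 30 µM (adjusted p = 0.116). TRIM74 had 0.65 ± 0.35 and -0.69 ± 0.398 at 1.32 CPM or less, and neither passed the test. These copies share sequence with TRIM50, and the part of reads from the shared stretches in their values was not tested. Of 6 genes tested, 4 were called higher and 0 lower at 20 µM (all genes, 17.2% and 16.9%). At 30 µM 2 were called higher and 2 lower (all genes, 29.5% and 31.3%). SQSTM1, the autophagy receptor p62, rose to 1818, 1793 and 1817 CPM at 30 µM, against 257.0, 261.1 and 264.5 CPM in controls (2.79 ± 0.0322, adjusted p = 7.10e-36). HDAC6, a deacetylase that works with it, had 0.16 ± 0.0459 at 20 µM and -0.32 ± 0.0471 at 30 µM, and its call at 20 µM was lost without 20 µM library 2 (adjusted p = 0.0533).

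Around ACSM2B, 8 of the 9 acyl-CoA synthetases tested were called lower at 30 µM than at 20 µM and 0 higher. Over all genes tested 28.9% were called lower and 28% higher between the doses. One of the 8 was ACSM1 (-0.99, adjusted p = 0.0361), whose call was lost with DESeq2 (adjusted p = 0.112), without 20 µM library 1 or 2, without 30 µM library 2 or 3, and without the 3 libraries that deviate together (adjusted p = 0.063 to 0.171 over these). At 20 µM against control 5 were called higher and 0 lower, and at 30 µM 3 higher and 4 lower, so they did not all fall below control. Over all genes these shares were 17.2% and 16.9% at 20 µM, and 29.5% and 31.3% at 30 µM. ACSM2A had 0.509, 0.990 and 0.702 CPM at 30 µM against 3.19, 2.71 and 3.67 CPM in controls (-2.10 ± 0.236, adjusted p = 1.86e-09), and it shares sequence with ACSM2B. ACSM5 rose at 20 µM (1.04 ± 0.176, adjusted p = 1.47e-05) and had 0.04 ± 0.189 at 30 µM (adjusted p = 0.861). ACSM3 rose at both doses (0.78 ± 0.0449, adjusted p = 3.03e-15, and 0.63 ± 0.0453, adjusted p = 4.99e-14). ACSS1, the mitochondrial acetyl-CoA synthetase, met the pattern of the 9 with 0.29 ± 0.0429 (adjusted p = 1.24e-06) and -0.82 ± 0.0451 (adjusted p = 4.77e-17).

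Around LDHD, the cytosolic LDHA, which acts on L-lactate, fell at 20 µM (-0.48 ± 0.0299, adjusted p = 2.11e-14) and at 30 µM (-0.15 ± 0.0298, adjusted p = 3.79e-05). D2HGDH, the D-2-hydroxyglutarate dehydrogenase, fell at 30 µM with LDHD (-0.87 ± 0.0649, adjusted p = 1.37e-13) and was not called at 20 µM. Of 12 genes of lactate, glyoxal and pyruvate handling tested, 2 were called higher and 3 lower at 20 µM (all genes, 17.2% and 16.9%). At 30 µM 4 were called higher and 7 lower (all genes, 29.5% and 31.3%). MPC2, a subunit of the mitochondrial pyruvate carrier, met the pattern with 0.16 ± 0.0459 and -0.51 ± 0.0475, and its call at 20 µM was lost without control library 3 (adjusted p = 0.0603) or 20 µM library 3 (adjusted p = 0.0526).

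The nearest tested gene on each side of each of the 9 was read in the same way. Of 18 such neighbours, 4 were called higher and 4 lower at 20 µM, and 5 higher and 7 lower at 30 µM. Over all genes tested these shares were 17.2% and 16.9% at 20 µM, and 29.5% and 31.3% at 30 µM. The pattern of the 9 was met by 0 of the 18, against 2.24% of all genes, a share too small for 18 genes to show a lack. Between the doses 2 were called higher and 8 lower, against 28% and 28.9% of all genes. The 2 higher were PRKAR1A (0.07, adjusted p = 0.049) and MFNG (0.28, adjusted p = 0.00551). PRKAR1A lost this call in 14 of 18 alternatives, the replicate block among them (adjusted p = 0.067), and with library size alone it was called lower (-0.12, adjusted p = 0.00111). MFNG lost its call with library size alone (adjusted p = 0.403) and without 20 µM library 1 (adjusted p = 0.0783). Beside PAQR8, MCM3, a subunit of the replicative helicase, fell at both doses (-0.50 ± 0.0356, adjusted p = 3.44e-13, and -1.44 ± 0.0371, adjusted p = 3.62e-26). PRKAR1A beside FAM20A rose at both (0.66 ± 0.0316, adjusted p = 2.84e-17, and 0.73 ± 0.0316, adjusted p = 5.19e-20).

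**Figure D4:**
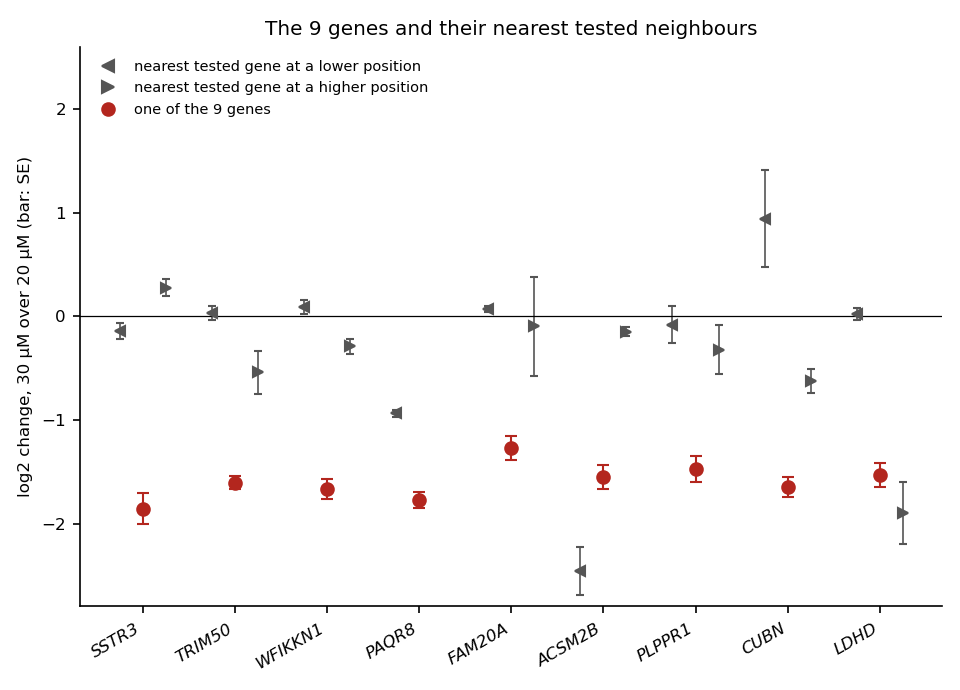
Log2 change of 30 µM over 20 µM (y axis, bars are SE) for each of the 9 genes (red circles) and nearest tested genes at a lower or a higher position (grey triangles, 17 drawn). The red circles lie between -1.86 and -1.27, and of the 17 triangles the one of ACSM2A and the one of an unnamed lincRNA beside LDHD lie lower than their member.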

How the data were processed

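Each library has 1 deposited file of read counts per gene. The authors made the counts with STAR 2.7.10a and HTSeq, on build hg38, and used FastQC, per the submitters' processing notes. Which annotation release and strand setting HTSeq used was not given in the sources at hand, so genes overlapping on opposite strands are uncertain. The labels call the molecule polyA RNA, while the protocol describes depletion of ribosomal RNA and an extraction kit made for fixed tissue. The series text names a lower dose, not analysed here, and a further incubation that may or may not apply. Totals that name no gene (40.6% to 44.0% of records) were left out.

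From these counts, genes passing filterByExpr entered the robust quasi-likelihood test of edgeR 4.0.16 (R 4.3.3), with TMM scaling and 1 mean per group over 9 libraries. Adjusted p-values are Benjamini-Hochberg over all 17623 genes, at 0.05. The test was also run on simulated data. Positions are from GENCODE 29 and promoters from RefSeq. Log2 CPM for correlations used a prior count of 2. The members and the lists of relatives were chosen with earlier results of these data known. Named genes were the members, tested paralogues and up to 3 companions per member by size, nearest neighbours, the 6 most alike genes, and UGCG; not all are printed, and 2 of them are not reported here. Companions that meet the members' pattern, and AMN, PGRMC1, GDF11, INHBC and LDHA, were named after their values were seen. Counts of every pair of libraries within a group differed by more than sampling noise (a chi-square of 2.1 to 8.02 per gene), and each library counts as 1 sample. Alternatives were other size factors, library size alone, DESeq2 1.42.0, no filter, only the groups compared, a replicate block, nuclear protein-coding genes, each library left out and the 3 deviating libraries left out; for levels per kilobase, transcript length was added after seeing the data.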

Additional observations from a re-analysis of the deposited data

How the results depend on the processing

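All 9 genes kept both signs and both calls under all 18 alternatives. They were chosen by these signs in the same libraries, so this count is no evidence for the pattern. Of their 486 log2 values under alternatives, 465 moved by less than 1 SD of the replicates, 21 moved further and 0 changed sign. With library size alone the members' log2 differences at 30 µM were -1.31 to -0.74, the median over all genes there was -0.25 against -0.04, and the calls at 30 µM against control split into 3530 higher and 8022 lower, against 5192 and 5515. Between the doses they split into 3029 higher and 7690 lower, against 4942 and 5099, and with upper-quartile factors into 4108 and 6067. With library size alone 627 genes met the members' pattern, against 394; the cause was not tested. With the replicate number as a block, 5952, 10635 and 9955 genes were called at 20 µM against control, 30 µM against control and between the doses, against 6020, 10707 and 10041, and 387 met the pattern. Deviations of same-numbered libraries correlated with r of -0.202 to 0.352, and not every library correlated best with its own number, so the numbers were not taken to pair them. Of 165 calls of 75 named genes outside the 9, 21 were lost in at least 1 alternative. With library size alone the sign turned for FAM20B at 30 µM (-0.028), ZNRF1 at 30 µM (-0.0435) and PRKAR1A between the doses (-0.12), the last also with upper-quartile factors (-0.0044). Members near 50 counts a library, such as SSTR3 at 30 µM, have the widest counting error (13.2%).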
